A study of Mus musculus with 10 samples.

Results

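Lcn2, Ltf, Slpi, Wfdc2, Pigr, Reg3g, Saa1, Saa2 and Saa3 encode secreted antimicrobial and acute-phase proteins of epithelium and the receptor that carries antibodies across it. They are 9 of the 48897 features quantified in each of the RNA-seq tables of mouse prostate cells with and without deletion of Arid1a, a DNA-binding subunit of the SWI/SNF chromatin remodelling complex. The genes were picked by name after their measured values in both tables had been seen. Their own differences between genotypes are therefore given as a description, with no test, and nothing is read from how many of them moved.

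The first comparison used prostate epithelium sorted as EpCAM-positive, CD45-negative cells from C57BL/6 mice that were 3 months old, with 3 libraries (A, B and C) per genotype. Both groups were genetically engineered with a Cre transgene under the Probasin promoter, which is active in prostate epithelium, and the controls are therefore no wild-type reference. The other group is in addition labelled Arid1a PC-/-, and its libraries are called those labelled Arid1a KO. The second comparison used Myc-CaP, a prostate cancer cell line of FVB mice driven by a Myc transgene, with 2 libraries carrying an empty vector (EV) and 2 Arid1a KO libraries. The labels do not say whether replicate libraries came from separate mice or cultures, so the spread between them may be partly technical. Whether the Myc-CaP RNA came from cultured cells or from cells sorted out of tumours is also not settled by the labels, which give both protocols for every sample.

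These proteins act at the surface of mucosal and glandular epithelium. Lipocalin 2 and lactoferrin deny iron to bacteria, SLPI and WFDC2 are small proteins with the four-disulfide core fold of protease inhibitors, REG3G is a lectin that kills Gram-positive bacteria, the polymeric immunoglobulin receptor moves dimeric IgA and pentameric IgM into the lumen, and serum amyloid A proteins carry lipids and retinol during the acute phase. Many of their genes are known to respond to IL-17, IL-22, IL-1 and IL-6 through NF-kB, IkB-zeta, STAT3 and C/EBP factors.

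The genes lie at 6 places on 5 chromosomes (GRCm38, GENCODE M21), and each is annotated as protein-coding. Saa3 (chr7:46711998-46715700), Saa1 (chr7:46740497-46742980) and Saa2 (chr7:46751790-46754313) form a cluster in which 24.8 kb, holding Saa4, separate Saa3 from Saa1 and 8.81 kb separate Saa1 from Saa2. Slpi (chr2:164354070-164389095) and Wfdc2 (chr2:164562413-164568510) sit 173 kb apart in the Wfdc cluster, while Lcn2 (chr2:32384633-32388252) is far from them on the same chromosome. Ltf (chr9:111019271-111042767), Pigr (chr1:130826684-130852249) and Reg3g (chr6:78466269-78468872) stand alone among these genes.

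The 250 bases before the transcription start were taken from RefSeq (GRCm38.p6), which held a record for all 9 genes. The RefSeq start can differ from the GENCODE start. For Lcn2, Slpi and Wfdc2 the window lies inside the GENCODE interval given above. They were searched on both strands for the letters TTGCNNAA (C/EBP), GGANNTTCC (NF-kB), TTCNNNGAA (STAT) and TGANTCA (AP-1). The C/EBP letters were in 6 of the 9 promoters (Lcn2, Ltf, Slpi, Saa1, Saa2 and Saa3) and in 9.57% of the 32841 mouse promoters searched. The NF-kB, STAT and AP-1 letters were in 0 of the 9 and in 3.59%, 7.02% and 6.75% of all promoters. A looser NF-kB form (GGGA, any 4 bases, CC), which was searched first, was in 2 of the 9 (Pigr and Reg3g) and in 17.6% of all promoters. A match is a description of the letters and not a binding site. Lcn2 and Ltf are shown because they share the C/EBP letters (in capitals) but differed in opposite directions in the epithelium, and Saa1 and Saa3 because they belong to 1 cluster and Saa3 differed between the groups while Saa1 overlapped:
Lcn2 (chr2:32387740-32387989, minus strand): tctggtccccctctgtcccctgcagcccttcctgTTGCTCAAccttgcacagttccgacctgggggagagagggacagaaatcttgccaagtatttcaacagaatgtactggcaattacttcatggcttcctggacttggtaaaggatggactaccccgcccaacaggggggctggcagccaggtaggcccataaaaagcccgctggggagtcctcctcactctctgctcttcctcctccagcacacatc
Ltf (chr9:111019042-111019291, plus strand): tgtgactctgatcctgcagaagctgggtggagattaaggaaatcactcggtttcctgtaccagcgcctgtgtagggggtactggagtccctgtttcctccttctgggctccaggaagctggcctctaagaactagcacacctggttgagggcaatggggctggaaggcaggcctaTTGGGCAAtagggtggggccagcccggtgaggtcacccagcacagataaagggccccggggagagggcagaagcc
Saa1 (chr7:46742981-46743230, minus strand): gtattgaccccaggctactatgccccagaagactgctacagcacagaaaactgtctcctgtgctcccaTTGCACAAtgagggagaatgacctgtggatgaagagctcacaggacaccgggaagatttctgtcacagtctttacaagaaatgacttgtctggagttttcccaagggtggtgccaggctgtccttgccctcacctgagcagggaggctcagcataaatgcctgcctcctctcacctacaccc
Saa3 (chr7:46715677-46715926, minus strand): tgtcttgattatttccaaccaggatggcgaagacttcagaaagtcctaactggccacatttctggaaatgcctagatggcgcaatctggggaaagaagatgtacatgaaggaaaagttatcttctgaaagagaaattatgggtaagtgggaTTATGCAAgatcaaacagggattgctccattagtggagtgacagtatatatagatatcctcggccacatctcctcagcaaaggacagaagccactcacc
The C/EBP letters began 216 bases before the RefSeq start in Lcn2, 75 in Ltf, 182 in Saa1 and 99 in Saa3. The windows of Saa1 and Saa2 were 94.8% identical, and those of Saa1 and Saa3 were 48.5% identical.

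The likeness of the serum amyloid A genes also limits how well they can be told apart by short reads. Each has a coding sequence of 366 bases. Saa1 and Saa2 were 95.1% identical over it, and 13.2% of all 50-base windows of the Saa1 transcript occurred unchanged in Saa2, so reads could be exchanged between them. Saa1 and Saa3 were 75.9% identical and shared 1.61% of such windows. The stretch of 100 coding bases where Saa1 and Saa2 differ most (coding bases 52 to 151, GENCODE M21) is printed to show what separates them, with capitals at every position where the 3 genes are not all the same:
Saa1: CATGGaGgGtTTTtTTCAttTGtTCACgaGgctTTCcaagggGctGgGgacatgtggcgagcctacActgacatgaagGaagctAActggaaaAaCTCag
Saa2: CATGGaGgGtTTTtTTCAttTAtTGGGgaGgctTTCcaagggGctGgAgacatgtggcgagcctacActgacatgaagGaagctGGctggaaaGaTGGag
Saa3: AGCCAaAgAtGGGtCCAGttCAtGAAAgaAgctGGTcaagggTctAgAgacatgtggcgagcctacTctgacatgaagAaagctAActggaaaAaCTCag
Saa2 differed from Saa1 at 11 of these 100 bases and Saa3 at 28.

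Facts of the libraries bear on what follows. The epithelium values are RPKM (reads divided by transcript length and by library depth). They summed to between 397999 and 473331 per library, all 3 control libraries being higher, and the steps between low values gave an estimated depth of 28.9 to 36.3, in units of 1e+06 reads. The Myc-CaP values are TPM, divided by transcript length and then brought to 1 sum in every library, which keeps no depth. Both units are scaled for length, so levels of different genes can be set side by side within a table but not between tables. Arid1a itself was not lower in the epithelium libraries labelled Arid1a KO, with 25.4 ± 3.13 RPKM (SD, n = 3) in controls and 30.2 ± 1.23 (SD, n = 3) in those libraries (log2 fold change 0.25 ± 0.09 SE, limma adjusted p = 0.054), so every epithelium direction given here compares libraries by label. In Myc-CaP it fell from 60.7 ± 0.36 to 39.9 ± 0.58 TPM (SD, n = 2 each, limma adjusted p = 0.0102). Cell type markers also moved with the label in the epithelium. Summed seminal vesicle markers went from 19464 to 21979 RPKM in controls down to 647 to 1632 (8 of 8 called lower, limma adjusted p under 0.05). Prostate luminal markers were called lower in 8 of 10 and basal markers higher in 3 of 6. Krt15, the most abundant basal marker by mean, lay lower instead, at 1107 ± 217 and 849 ± 44.7 RPKM (SD, n = 3 each, limma adjusted p = 0.0638). Of all genes tested, 27.5% were called higher and 29.6% lower, which is the background for these and later marker counts. Pan-leukocyte markers summed to 847 to 876 RPKM in controls and 1011 to 1084 in libraries labelled Arid1a KO despite the CD45-negative gate. Of these 8 markers, 6 were called higher and 1 lower. Ptprc, which encodes CD45, rose from 28.6 ± 2.30 to 57.3 ± 0.98 RPKM (SD, n = 3 each, limma adjusted p = 5.36e-05). Cd52, the most abundant of them in controls, fell from 344 ± 25.5 to 161 ± 5.20 RPKM (SD, n = 3 each, limma adjusted p = 5.13e-05). The part of these shifts in the results was not tested, and in bulk RNA fewer cells of a type cannot be told apart from less RNA per cell.

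In the epithelium the 9 genes did not move as a block. In the libraries labelled Arid1a KO, Ltf and Saa3 were higher, Lcn2, Wfdc2, Pigr and Saa2 were lower, Slpi was modestly higher, and Reg3g and Saa1 overlapped between the groups. A mean ratio of at least 1.5 with no overlap between groups was met by 6 of the 9 genes, 2 of them higher and 4 lower. Of all 16275 genes tested, 33.6% met it, 15.9% higher and 17.7% lower, and since the genes were chosen from these values nothing is read from the count. Of the 9 genes, 8 passed the filter on low values (a mean of at least 0.5 RPKM) and Saa2 did not. Fold changes below are differences of means of log2(RPKM + 1), with the standard error from limma.

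**Figure D1:**
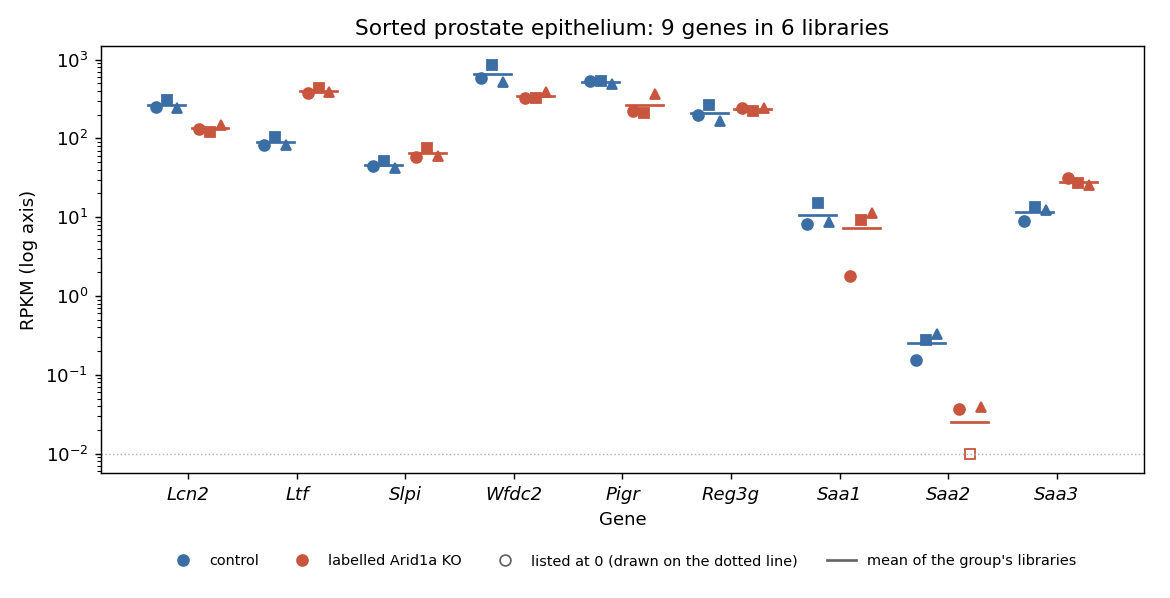
RPKM of the 9 genes (log axis) in the 3 control libraries (blue) and the 3 libraries labelled Arid1a KO (red) of sorted prostate epithelium; circles, squares and triangles are libraries A, B and C, bars are group means, and an open symbol on the dotted line is a value listed at 0. Ltf and Saa3 sit higher in the libraries labelled Arid1a KO, while Lcn2, Wfdc2, Pigr and Saa2 sit lower.

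Among the iron-binding proteins, Lcn2, which captures bacterial siderophores, measured 249, 304 and 246 RPKM in the control libraries (in the order A, B, C, as in all such series of values) and 131, 122 and 148 RPKM in the libraries labelled Arid1a KO. Every library labelled Arid1a KO lay below every control library, and library B was the highest control and the lowest of the other group. The means were 266 ± 32.4 and 134 ± 13.4 RPKM (SD, n = 3 each), 1.99 times lower, with a log2 fold change of -0.98 ± 0.11 (SE). Ltf, which encodes the iron chelator lactoferrin, measured 82.4, 104 and 82.9 RPKM in controls and 381, 440 and 382 RPKM in the libraries labelled Arid1a KO. The groups were far apart, with library B the highest in each (the groups did not overlap for 66.7% of all genes tested). The means were 89.8 ± 12.4 and 401 ± 33.5 RPKM (SD, n = 3 each), 4.46 times higher, with a log2 fold change of 2.15 ± 0.11 (SE). Among all tested genes, Ltf moved from the 95.2 to 96.0 percentile of its library to the 99.0 to 99.2 percentile. In the ratio of Ltf to Lcn2, which does not depend on the scaling of a library, the controls were nearly identical at 0.330, 0.343 and 0.337, and the libraries labelled Arid1a KO were at 2.90, 3.60 and 2.58. Lcn2 was thus about 3 times as abundant as Ltf in every control library and was the less abundant of the pair in every other library.

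Both proteins are also stored in the specific granules of neutrophils, so the granule genes were set beside them. Camp, the cathelicidin of the same granules, measured 1.18, 0.69 and 0.96 RPKM in controls and 0.27, 0.39 and 0.52 in the libraries labelled Arid1a KO, and Ngp was between 0.43 and 2.09 RPKM in all 6. These levels are under those of Ltf and Lcn2, and Camp fell (limma adjusted p = 0.014) while Ngp overlapped. Mmp8, a collagenase of neutrophil granules, instead rose from 0.695 ± 0.21 to 3.60 ± 1.78 RPKM and the surface protein Cd177 rose from 1.33 ± 0.28 to 6.93 ± 1.16 RPKM (SD, n = 3 each, limma adjusted p = 0.00232 and 6.32e-05). The most abundant genes of the list, S100a9 and S100a8, overlapped between the groups, with S100a9 at 189 ± 36.4 and 251 ± 68.0 RPKM (SD, n = 3 each, limma adjusted p = 0.152). Ly6g, a surface marker of mature neutrophils, rose from 0.41 ± 0.14 to 1.13 ± 0.018 RPKM (SD, n = 3 each, limma adjusted p = 0.00201). Of the 13 neutrophil markers tested, 7 rose and 2 fell, and their summed level was 381 to 513 RPKM in controls and 448 to 729 in the other group. The part of neutrophils in the Ltf difference was not tested.

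The ratio to Epcam, the surface protein used in the sort, separates the genes in another way. Epcam fell from 304 ± 40.9 to 201 ± 21.5 RPKM (SD, n = 3 each, limma adjusted p = 0.00409). The Ltf to Epcam ratio was 0.295, 0.296 and 0.295 in controls and 2.08, 2.26 and 1.70 in the libraries labelled Arid1a KO. The Lcn2 to Epcam ratio was 0.893, 0.865 and 0.874 in controls and 0.718, 0.629 and 0.661 in the other libraries, still apart. The lowest control value of the Wfdc2 to Epcam ratio was 1.87 and the highest value in the libraries labelled Arid1a KO was 1.80, so the groups were barely apart, and the Pigr to Epcam ratio overlapped, at 1.52 to 1.90 and 1.10 to 1.64.

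The whey acidic protein family members differed in opposite directions. Wfdc2, which encodes the secreted protein HE4, was the most abundant of the 9 genes in controls, with 581, 844 and 525 RPKM against 329, 327 and 391 RPKM in the libraries labelled Arid1a KO. All of the latter were lower, and control library B stood above the other controls. The means were 650 ± 170 and 349 ± 36.4 RPKM (SD, n = 3 each), 1.86 times lower, with a log2 fold change of -0.87 ± 0.18 (SE). Slpi, the secretory leukocyte protease inhibitor of neutrophil elastase, measured 44.9, 51.0 and 42.7 RPKM in controls and 58.5, 76.4 and 60.2 RPKM in the other libraries. Its groups did not overlap, but the ratio of means was 1.41 and so below 1.5 (46.2 ± 4.34 and 65.0 ± 9.88 RPKM, SD, n = 3 each, log2 fold change 0.48 ± 0.12 SE). The Wfdc2 to Slpi ratio within a library was 12.9, 16.5 and 12.3 in controls and 5.62, 4.28 and 6.50 in the libraries labelled Arid1a KO.

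Pigr encodes the polymeric immunoglobulin receptor. It measured 530, 535 and 485 RPKM in controls and 223, 213 and 369 RPKM in the libraries labelled Arid1a KO. All of the latter were lower, but library C stood apart from A and B and nearer to the controls. The means were 516 ± 27.7 and 268 ± 87.1 RPKM (SD, n = 3 each), 1.93 times lower, with a log2 fold change of -0.99 ± 0.20 (SE). The chains of the antibodies that PIGR carries are made by B lineage cells and not by epithelium. Igha, the IgA heavy chain, was at 334 ± 16.3 and 317 ± 49.3 RPKM (SD, n = 3 each, limma adjusted p = 0.578), and its groups overlapped. Ighm, the IgM heavy chain, rose from 123 ± 7.68 to 587 ± 158 RPKM and Jchain, which joins the polymers, from 19.6 ± 0.43 to 49.4 ± 14.4 RPKM (SD, n = 3 each, limma adjusted p = 9.16e-05 and 0.00155). The summed B and plasma cell markers went from 960 to 998 RPKM in controls to 1674 to 2737 in the libraries labelled Arid1a KO, with 7 of 9 tested genes higher. Fcamr, the neighbouring receptor gene 11.9 kb away, was at 0.862 ± 0.065 and 0.791 ± 0.092 RPKM (SD, n = 3 each, limma adjusted p = 0.606).

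Reg3g encodes the bactericidal C-type lectin REG3-gamma. It measured 200, 267 and 166 RPKM in controls and 246, 224 and 241 RPKM in the libraries labelled Arid1a KO. The groups overlapped, the controls being the more spread of the 2 groups, and the log2 fold change was 0.19 ± 0.16 (SE). Its paralog Reg3b, 92.8 kb away on the same chromosome and a companion gene that was tested, fell from 17.0, 30.9 and 15.1 RPKM to 1.30, 1.81 and 5.08 RPKM (log2 fold change -2.63 ± 0.39 SE, limma adjusted p = 0.00105). The Reg3g to Reg3b ratio was 11.8, 8.63 and 11.0 in controls and 190, 123 and 47.4 in the libraries labelled Arid1a KO. The likeness of the pair in sequence was not measured, and whether reads were split between them was not tested.

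The serum amyloid A genes were the least abundant of the set and diverged from each other. Saa3, the form made outside the liver by macrophages, fat and epithelium, measured 8.84, 13.5 and 12.2 RPKM in controls and 31.0, 27.1 and 25.7 RPKM in the libraries labelled Arid1a KO. The groups were apart, with means of 11.5 ± 2.42 and 27.9 ± 2.74 RPKM (SD, n = 3 each), 2.42 times higher and a log2 fold change of 1.22 ± 0.15 (SE). Macrophage markers rose beside it, with 9 of 10 genes higher and summed levels of 2355 to 2749 RPKM in controls and 4198 to 4922 in the other libraries, and their part in the Saa3 difference was not tested. Saa1, an acute-phase form best known from liver and intestine, measured 8.10, 15.3 and 8.61 RPKM in controls and 1.80, 9.12 and 11.3 RPKM in the libraries labelled Arid1a KO. Here the groups overlapped, and the mean difference rested on library A, which was the lowest of all 6 (log2 fold change -0.68 ± 0.53 SE, and -0.01 without that library). Saa2 was close to the limit of detection, at 0.153, 0.280 and 0.327 RPKM in controls and 0.0372, 0 and 0.0393 RPKM in the others. With the estimated depth and a transcript length of 606 bases, the estimates were 2.7, 6.2 and 6.2 reads in controls against 0.69, 0 and 0.69. A value above 0 needs at least 1 read, so these Saa2 estimates are likely too low. The Saa3 to Saa1 ratio was 1.09, 0.885 and 1.42 in controls and 17.2, 2.97 and 2.28 in the libraries labelled Arid1a KO. The hepatocyte marker Alb was listed at 0 in 5 of the 6 libraries and at 0.031 RPKM in control library C.

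**Figure D2:**
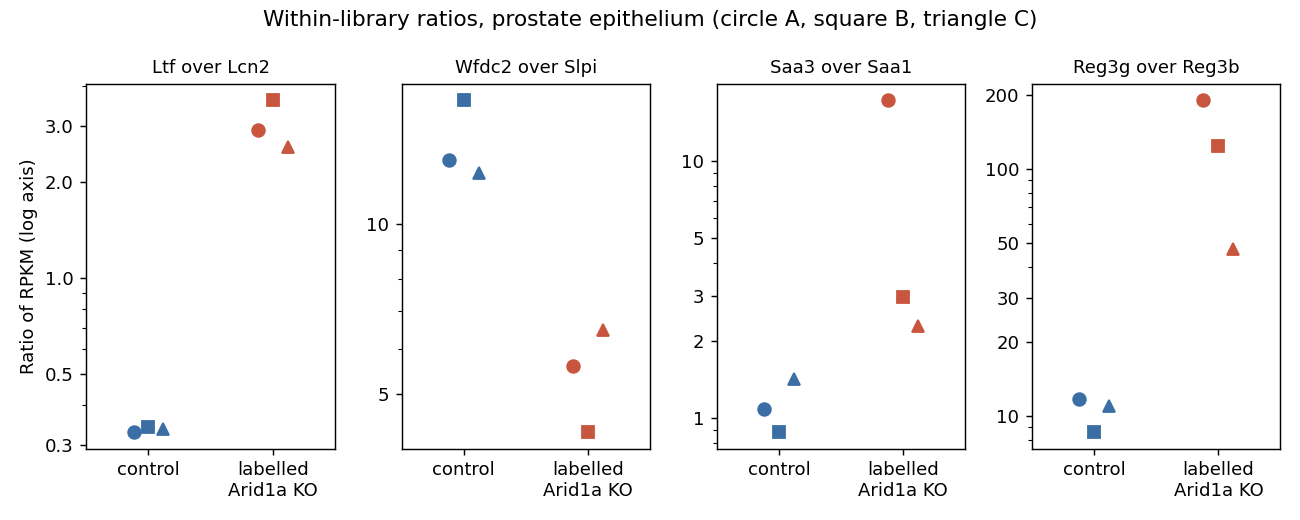
Within-library ratios of RPKM (log axes) of 4 gene pairs in the 3 control libraries (blue) and the 3 libraries labelled Arid1a KO (red) of prostate epithelium. Ltf over Lcn2 lies between 0.330 and 0.343 in controls and between 2.58 and 3.60 in the others, and the groups are also apart for the other 3 pairs.

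The order of the levels differed between the groups, while the sums of the 9 genes overlapped. In controls the order by mean was Wfdc2, Pigr, Lcn2, Reg3g, Ltf, Slpi, Saa3, Saa1 and Saa2, and the library values of Wfdc2 and Pigr, of Lcn2 and Reg3g, and of Saa3 and Saa1 overlapped. In the libraries labelled Arid1a KO the order was Ltf, Wfdc2, Pigr, Reg3g, Lcn2, Slpi, Saa3, Saa1 and Saa2, and the values of Ltf and Wfdc2, of Wfdc2 and Pigr, and of Pigr and Reg3g overlapped. The 9 genes summed to 1705, 2134 and 1569 RPKM in controls and 1402, 1438 and 1628 RPKM in the other libraries. As a share of all RPKM they made up 0.396% ± 0.050 in controls and 0.372% ± 0.029 in the others (SD, n = 3 each), which also overlapped. Within that sum, the share of Ltf went from 5.00% ± 0.25 to 27.1% ± 3.55, that of Wfdc2 from 35.7% ± 3.34 to 23.4% ± 0.63 and that of Pigr from 29.0% ± 3.42 to 17.8% ± 4.24 (SD, n = 3 each).

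**Figure D3:**
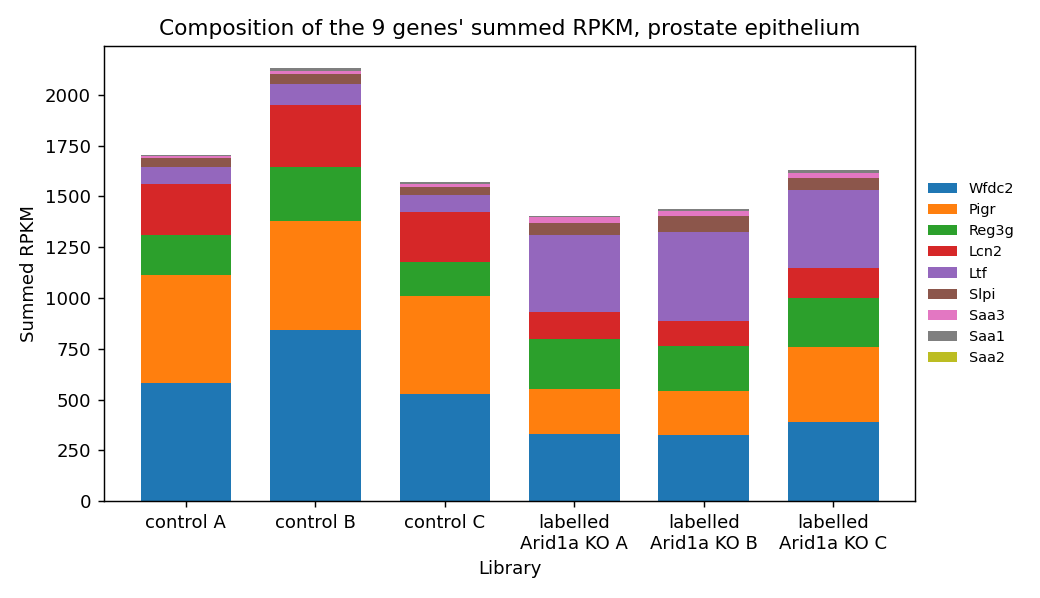
Summed RPKM of the 9 genes in each of the 6 epithelium libraries, stacked by gene from a baseline of 0. The height overlaps between the groups, 1569 to 2134 RPKM in controls and 1402 to 1628 RPKM in the libraries labelled Arid1a KO, while the Ltf segment grows from 82.4 to 104 RPKM to 381 to 440 RPKM.

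In Myc-CaP, most of the set was scarcely detected. Lcn2, Slpi and Saa3 were expressed, Wfdc2 and Saa2 were near 1 TPM or below, and Ltf, Pigr, Saa1 and Reg3g were at or near 0. A mean ratio of at least 1.5 with no overlap was met by 3 of the 9 genes, namely Lcn2 (lower) and the scarce Wfdc2 and Saa2 (higher). Of the 13974 genes tested, 11.4% met it, 7.26% higher and 4.19% lower, and nothing is read from the count. Of the 9 genes, 5 passed the filter on low values. Epithelial markers were nearly absent with the empty vector, where Epcam and Krt18 were listed at 0 and Krt8 was at 1.07 and 0.790 TPM, and Krt8 was at 40.3 and 38.8 TPM in the knockout (limma adjusted p = 0.00135). The leukocyte marker Ptprc and the neutrophil markers Ly6g, Camp and Ngp were listed at 0 in both knockout libraries and at most at 0.044 TPM with the empty vector.

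Lcn2 measured 99.4 and 101 TPM in EV libraries 1 and 2 and 33.0 and 32.8 TPM in knockout libraries 1 and 2. Replicates were close and the groups were far apart, with means 3.04 times lower in the knockout and a log2 fold change of -1.58 ± 0.06 (SE). The groups did not overlap for 51.5% of all genes tested in this table. Slpi measured 21.1 and 17.8 TPM with the empty vector and 32.6 and 25.5 TPM in the knockout. Both knockout libraries were higher, the ratio of means was just under the threshold of 1.5, and the log2 fold change was 0.55 ± 0.15 (SE). Saa3 measured 16.3 and 9.52 TPM with the empty vector and 18.0 and 19.1 TPM in the knockout, so that the groups were apart but EV library 1 lay closer to the knockout than to EV library 2 (log2 fold change 0.53 ± 0.24 SE). The Lcn2 to Slpi ratio, which does not depend on scaling, was 4.72 and 5.68 with the empty vector and 1.01 and 1.29 in the knockout. The same ratio in the epithelium was 5.56, 5.95 and 5.77 in controls and 2.25, 1.60 and 2.47 in the libraries labelled Arid1a KO.

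**Figure D4:**
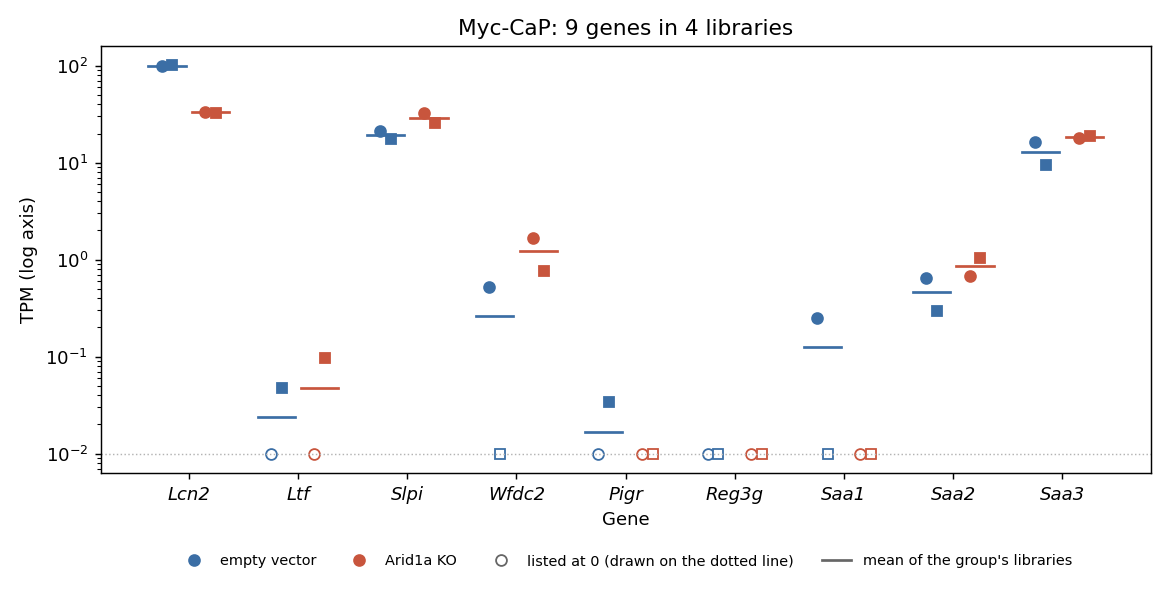
TPM of the 9 genes (log axis) in 2 empty vector libraries (blue) and 2 Arid1a KO libraries (red) of Myc-CaP; circles are library 1, squares library 2, bars group means, and open symbols on the dotted line are values listed at 0. Lcn2 is at 99.4 and 101 TPM with the empty vector and at 33.0 and 32.8 TPM in the knockout, and Ltf, Pigr, Reg3g and Saa1 are at or near 0.

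The scarce genes rest on few reads. Wfdc2 measured 0.526 and 0 TPM with the empty vector and 1.67 and 0.759 TPM in the knockout, and Saa2 measured 0.645 and 0.293 TPM and 0.684 and 1.04 TPM. From the size of the steps between low values these are about 4, 0, 12 and 5 reads for Wfdc2. For Saa2 the estimates were 3.4, 1.4, 3.5 and 4.8 reads, likely too low as in the epithelium. Ltf was listed at 0 in 1 library of each group and otherwise at 0.047 and 0.096 TPM, Pigr was above 0 only in EV library 2 and Saa1 only in EV library 1, and Reg3g was listed at 0 in all 4 libraries. The sum of the 9 genes was 138 and 129 TPM with the empty vector and 86.0 and 79.3 TPM in the knockout, and Lcn2 made up 75.2% ± 4.65 and 39.9% ± 2.10 of it (SD, n = 2 each). Lcn2 was lower and Slpi and Saa3 were higher with the Arid1a label in both systems, which share no library but were normalized separately. Wfdc2 and Saa2 were lower in the epithelium and higher in Myc-CaP.

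Other genes of these pathways, 173 in 5 lists drawn up by function, were tested with limma in the fit over all genes and are called companion genes. The lists were chosen with earlier results of these data known, so no enrichment is read from their shares beside those of all genes. In the epithelium 117 were tested and 83 passed an adjusted p of 0.05 (70.9%), 46 higher and 37 lower, where 57.1% of all genes tested passed, 27.5% higher and 29.6% lower. With libraries rescaled to the same sum, 57 companion genes were higher and 29 lower. In Myc-CaP 69 were tested and 18 passed (26.1%), 12 higher and 6 lower, where 6.43% of all genes passed, 4.54% higher and 1.89% lower. Without 1 of the 4 Myc-CaP libraries at a time only 1 or 2 of these calls were made, Orm1 being called in each case, and without the variance trend 8 were.

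**Figure D5:**
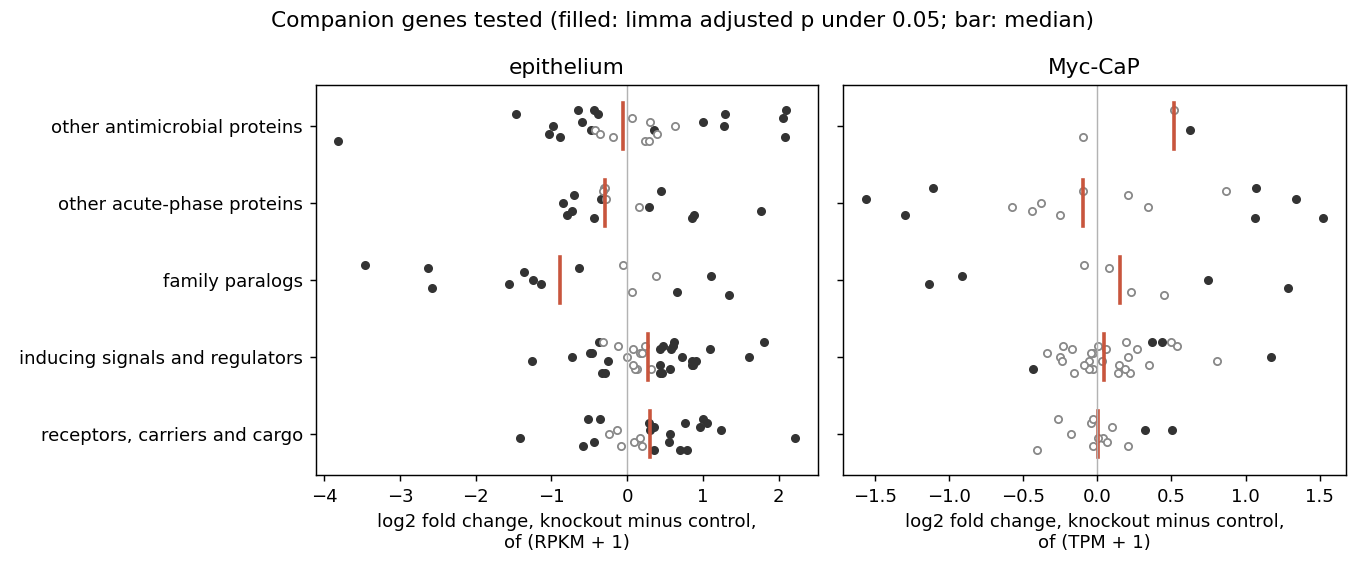
Log2 fold changes of the companion genes tested in the epithelium (left) and Myc-CaP (right), 1 point per gene, by list. Filled points passed a limma adjusted p of 0.05 and the bar is the median of the list, which runs from -0.88 (family paralogs) to 0.30 (receptors, carriers and cargo) in the epithelium.

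Among 26 other antimicrobial genes tested in the epithelium, 7 rose and 10 fell, with a median log2 fold change of -0.06 beside -0.03 for all genes. The dual oxidase that makes hydrogen peroxide at mucosal surfaces rose with its maturation factor, Duox2 from 0.636 ± 0.093 to 6.29 ± 2.55 RPKM and Duoxa2 from 0.760 ± 0.15 to 6.98 ± 3.74 RPKM (SD, n = 3 each, log2 fold changes 2.10 and 2.09, limma adjusted p = 0.000202 and 0.000636). Duox1 and Chil3, a macrophage chitinase-like lectin, also rose. Defb1, the constitutive epithelial beta-defensin, fell from 72.7 ± 7.57 to 4.51 ± 2.36 RPKM (log2 fold change -3.81 ± 0.26 SE, limma adjusted p = 3.84e-05), and lactoperoxidase (Lpo), Defb2 and surfactant protein D (Sftpd) fell with log2 fold changes of -1.47, -1.04 and -0.98. In Myc-CaP 3 genes of the list were tested, and 1 rose, Lgals3 (galectin 3), from 152 ± 9.96 to 235 ± 20.6 TPM (SD, n = 2 each, limma adjusted p = 0.0235).

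Among 16 acute-phase genes tested in the epithelium, 5 rose and 6 fell, with a median of -0.30. Il1rn, the interleukin 1 receptor antagonist, rose from 69.6 ± 1.51 to 240 ± 23.0 RPKM (SD, n = 3 each, log2 fold change 1.77 ± 0.08 SE, limma adjusted p = 9.8e-06), and Cd14 and Hp (haptoglobin) rose by log2 fold changes of 0.89 and 0.45. The call of Hp was lost without control library A (adjusted p = 0.0546 by limma), control library B, or library A or B labelled Arid1a KO. Lbp, Ptx3, Steap4 and Lrg1 fell with log2 fold changes between -0.85 and -0.71. In Myc-CaP 4 of 15 rose and 3 fell, with a median of -0.10. There Orm1 (orosomucoid, the alpha-1 acid glycoprotein) fell from 312 ± 13.3 to 127 ± 2.09 TPM (SD, n = 2 each, log2 fold change -1.29 ± 0.06 SE, limma adjusted p = 0.00172), as did Orm3 and Lrg1, with log2 fold changes of -1.56 and -1.11. Hp, Cp (ceruloplasmin), C3 and the ferrireductase Steap4 rose by 1.52, 1.34, 1.07 and 1.06. The Orm genes are paralogs, and whether reads were split between them was not tested.

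Among 14 paralogs of the 9 genes tested in the epithelium, 3 rose and 8 fell, with a median of -0.88. Trf, which encodes transferrin, the paralog of lactoferrin, rose from 116 ± 2.37 to 297 ± 22.7 RPKM (SD, n = 3 each, log2 fold change 1.35 ± 0.08 SE, limma adjusted p = 1.9e-05). In the Wfdc family, Wfdc15b fell by 3.46, Wfdc1 by 2.58 and Wfdc18 by 1.56 on the log2 scale, while Wfdc21 and Wfdc17 rose by 1.11 and 0.65. In Myc-CaP 2 of 8 rose, Wfdc6a and Wfdc6b, which lie near Wfdc2 in the cluster, with log2 fold changes of 1.29 and 0.75, and 2 fell, the lipocalins Obp2a and Ptgds, with log2 fold changes of -1.14 and -0.91.

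Among 36 inducing signals and regulators tested in the epithelium, 17 rose and 8 fell, with a median of 0.27. Rel and Osm (oncostatin M, a cytokine of the IL-6 family) rose by 1.81 and 1.61, Zc3h12a, the RNase that degrades mRNAs of the IL-17 response, by 1.10, and Il17ra by 0.91. Il17rc, the partner chain of the receptor, fell by 0.47 and the adaptor Traf3ip2 fell by 0.73 on the log2 scale. C/EBP genes differed, with Cebpd lower, from 68.5 ± 2.44 to 28.1 ± 1.79 RPKM (limma adjusted p = 1.59e-05), and Cebpb higher, from 375 ± 45.2 to 556 ± 65.2 RPKM (SD, n = 3 each, limma adjusted p = 0.00582). Nfkbiz, which encodes IkB-zeta, rose from 97.6 ± 5.49 to 177 ± 13.0 RPKM (SD, n = 3 each, limma adjusted p = 0.000134). Ehf, an epithelial ETS factor, fell by 0.49, a call lost when libraries were rescaled to the same sum (limma adjusted p = 0.0639). Transcripts of IL-17A and IL-22 were scarce, with Il17a at 0.750 ± 0.27 and 0.401 ± 0.12 RPKM (SD, n = 3 each, limma adjusted p = 0.0783) and Il22 at most at 0.328 RPKM. In Myc-CaP 3 of 30 rose, among them Tnfrsf1a and Cebpa by 0.44 and 0.37, and 1 fell, Nfkb2, by 0.43 on the log2 scale.

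Among 25 receptors, carriers and cargo genes tested in the epithelium, 14 rose and 5 fell, with a median of 0.30. Slc22a17, a receptor for lipocalin 2, fell from 14.4 ± 0.69 to 9.31 ± 0.45 RPKM (SD, n = 3 each, limma adjusted p = 0.000348), and Bdh2, an enzyme of the mammalian siderophore that lipocalin 2 binds, fell from 3.49 ± 0.86 to 0.660 ± 0.092 RPKM (SD, n = 3 each, limma adjusted p = 0.000171). Lrp2 (megalin), another lipocalin 2 receptor, was at most at 0.029 RPKM in any library. Tlr2, to which serum amyloid A binds, rose by 1.05 and Ager, another of its receptors, fell by 0.52 on the log2 scale. Hmox1 (heme oxygenase 1) rose, with means of 55.2 ± 1.88 and 112 ± 9.69 RPKM (SD, n = 3 each), and Selenos (given under its older symbol Vimp) fell by 0.43 on the log2 scale. In Myc-CaP 2 of 13 rose, ferritin heavy chain Fth1 by 0.51 and Vimp by 0.32.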

How the data were processed

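RNA-seq of 10 samples in 4 groups was used, grouped by the genotype field of the labels. Per the study's methods, the reads were paired-end, TopHat2 aligned them to GRCm38, and HTSeq-count gave strand-specific totals per gene, whereas the submitters' processing notes name HISAT2, HTSeq, DESeq2 and mm10. The authors deposited RPKM for the epithelium and TPM for Myc-CaP. The gene lengths and annotation behind these values are not given in the sources used here. Neither unit is a count, so no count model was fitted. The per-sample and series tables held the same values (0 differed), and 27 features carry a date in place of a symbol.

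The tables were fitted separately in limma 3.58.1 under R 4.3.3 (lmFit, eBayes with a trend, 2 groups, no covariate) on log2(value + 1), for genes with a mean of at least 0.5. On this scale changes of scarce genes are understated. Two-sided p-values were Benjamini-Hochberg adjusted over all genes tested, and a gene was called under 0.05. With 2 libraries against 2 the test depends on variance borrowed from other genes. The fit was tested on simulated data. Depth was estimated from the steps of low values with GENCODE M21 lengths (62.3% of features matched by name). Between 31.0% and 37.1% of low epithelium values were within 0.05 of a whole number of reads, so reads were not recovered and no interval or floor is given.

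The 9 genes and all lists were chosen with earlier results of these data known. The text names all 9 genes and, per list and table, up to 4 called rises and 4 called falls whose groups do not overlap, by size of change, besides marker genes. Counts cover whole lists, while some single items that the rule names are not reported here. Cebpb, Nfkbiz, Il17a, Il22, Lrp2, Fcamr, Igha, Mmp8, Cd177, S100a8, S100a9, Krt18, Cd52 and Col1a1 were named after their values were seen. Promoters came from RefSeq (GRCm38.p6) and serum amyloid A transcripts from GENCODE M21. Alternatives were another pseudocount, filters, normalizations and variance settings, a replicate block, and each library left out.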

Additional observations from a re-analysis of the deposited data

Results flagged for a closer look

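Among the 18 genes looked at in both systems (the 9 genes, the companion genes named in both tables, Arid1a, Epcam, Camp, Ngp and Ly6g), 5 had groups that did not overlap and opposite directions in the 2 systems. The difference between the systems was not tested, since the tables are in different units and were normalized separately. Wfdc2 had a log2 fold change of -0.87 in the epithelium and 0.81 in Myc-CaP, where it rests on about 4, 0, 12 and 5 reads. Saa2 had -0.29 in the epithelium and 0.35 in Myc-CaP, on few reads in every library (estimates of at most 6.2, likely too low). Steap4, a ferrireductase induced by inflammation, had -0.72 in the epithelium and 1.06 in Myc-CaP. Vimp (Selenos) had -0.43 in the epithelium and 0.32 in Myc-CaP. Arid1a itself had 0.25 in the epithelium, where the change did not pass the threshold, and -0.59 in Myc-CaP.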

How the results depend on the processing

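No log2 fold change of a tested gene of the set or of a named companion gene changed sign under the alternatives tried. The balance of higher and lower calls over all genes did change, as given below. In the epithelium, a minimum mean of 5 RPKM left 5872 genes called of 9027 tested in place of 9294. Bringing the libraries to the same sum shifted the median over all genes by more than 0.1 on the log2 scale, to 0.11 in place of -0.03, and the calls from 4471 higher and 4823 lower to 6028 higher and 3307 lower. Under it the companion calls were 57 higher and 29 lower, Lcn2, Ltf and Slpi moved to -0.81, 2.33 and 0.65, and Slpi joined the genes apart by 1.5-fold, making 7. Over the alternatives, Reg3g ran from 0.03 to 0.37 and Saa1 from -1.08 to -0.01.

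In Myc-CaP, the number of genes called went from 899 to 358 with no filter on low values, 451 without the variance trend and 2771 with the replicate number as a block (1453 higher, 1318 lower), and to between 47 and 76 without 1 library. Companion calls went from 18 to 5 with no filter, 8 without the trend, 27 with the replicate block, and 1 to 2 without 1 library, where the lone library of a group is assumed to vary like the other group. Genes of the set apart by 1.5-fold numbered 3 to 6 without 1 library, the 6 being without EV library 1. With a pseudocount of 0.1 the log2 fold changes of Wfdc2 and Saa2 became 2.30 and 0.81, while Lcn2 stayed between -1.60 and -1.56 under all alternatives.

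The replicate numbers were not treated as pairs. Deviations of same-lettered epithelium libraries correlated at 0.041, 0.0094 and -0.057. In Myc-CaP the correlation was 0.19, which is 1 value, since with 2 libraries per group both pairs must give the same result. Some genes there differed by replicate number in both groups. Col1a1 was at 0.211 and 0.347 TPM in EV library 1 and knockout library 1, and at 19.4 and 7.45 TPM in EV library 2 and knockout library 2. The block left 8823 genes and 83 companion genes called in the epithelium. Depth limits Saa2 in both systems, and Wfdc2, Ltf, Pigr, Saa1 and Reg3g in Myc-CaP. These values rest on few reads or none and no detection limit was computed, so the differences given for Saa2 and Wfdc2 there are uncertain.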
